A study of Mus musculus with 6 samples.

Results

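The Ly6 genes encode small surface antigens with a shared cysteine-rich fold, and Ly6a encodes Sca-1, the antigen on which both cell populations of this study were sorted. The members were the rows of the deposited gene table whose Ensembl ID maps, in GENCODE M21, to Ly6a, Ly6e, Ly6c1, Ly6c2, Ly6d, Ly6g, Ly6i or Ly6k. All 8 were found among the 55401 gene IDs, and all 8 lie on mouse chromosome 15 (mm10) between positions 74762056 and 75159126. RNA was measured in bulk in 6 libraries, each from 2000 cells sorted out of mouse bone marrow, all labelled wild type. The 3 LSK libraries held cells negative for lineage antigens and positive for Sca-1 and c-Kit, the marrow fraction where stem cells reside, from C57BL/6 mice that were untreated and 6 to 8 weeks old. The 3 ESC-derived libraries held cells that were Lin-negative and Sca-1-positive but lacked c-Kit, from primary recipients of sorted CD144-positive cells differentiated from embryonic stem cells. The sources used here do not give the recipients' age or strain, the stem cell line, the animals per library, or how donor cells were told from host cells. The comparison asks how the Ly6 antigens of the ESC-derived c-Kit-negative cells differ from those of LSK cells.

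Ly6 proteins are held in the outer leaflet of the plasma membrane by a glycosylphosphatidylinositol (GPI) anchor, and several serve as antigens for sorting mouse blood cells. Sca-1 marks stem and progenitor cells in marrow but is also carried by activated and memory T cells and by endothelium, and its gene responds to interferons. Ly6C, from the neighbouring genes Ly6c1 and Ly6c2, is found on monocytes, plasmacytoid dendritic cells, plasma cells and memory CD8 T cells. Ly6G marks neutrophils. The widely used Gr-1 antibody, part of many lineage cocktails, binds Ly6G and can also bind Ly6C, but the labels do not name the antibodies of the lineage gate.

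Library totals ran from 41580006 to 49269286 estimated counts. Kit, which encodes c-Kit, averaged 48.7 ± 6.38 counts scaled to library size (CPM) in LSK against 0.0896 ± 0.0398 CPM in ESC-derived libraries (SD, with n = 3 libraries in each group, as for all means below). All 19 listed T cell genes rose in the ESC-derived libraries, Cd3e and Cd8a among them, genes of a lineage that such gates often remove. LSK library 2 stood apart in another way. At 681 genes with a mean of at least 10 CPM where LSK libraries 1 and 3 differed by 2-fold or more, it lay between them in 94.1%, against 27.6 to 69.0% for each of the other 5 libraries placed between its group's other two. Values without LSK library 2 are therefore given below beside the calls of Ly6 members that they change, and beside the list counts that changed most. For single genes outside the family they are not given. Some other list counts below also changed without LSK library 2. Rises then numbered 7 in the interferon list, 8 in the neutrophil list and 16 in the CD8 T cell list. Falls then numbered 7 in the plasma cell list, 2 in the neutrophil list and 11 in the early B list. Nothing in the labels says that the libraries of a group came from separate animals, so p-values measure the spread between these libraries, which may be technical. In bulk libraries, fewer cells of a type and less RNA per cell cannot be told apart.

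Of the 8 members, 5 rose in ESC-derived cells (Ly6a, Ly6e, Ly6c2, Ly6c1 and Ly6g), 2 fell (Ly6d and Ly6k) and Ly6i did not pass an adjusted p of 0.05 in edgeR's quasi-likelihood test. Over all 16211 genes tested, 14.8% rose and 15.2% fell. The median log2 fold change of the members was 0.88, and that of all tested genes was -0.07. In absolute size the medians were 2.62 for the members and 0.84 for all tested genes. Without LSK library 2, 2 members rose, Ly6a and Ly6c2, and the falls of Ly6d and Ly6k remained, where 8.61% of 17030 tested genes rose and 7.34% fell. The rises numbered 3 without LSK library 3 or without ESC-derived library 3. The 2 groups did not overlap in 6 members, the exceptions being Ly6c1 and Ly6i, and did not overlap in 49.8% of all tested genes.

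**Figure D1:**
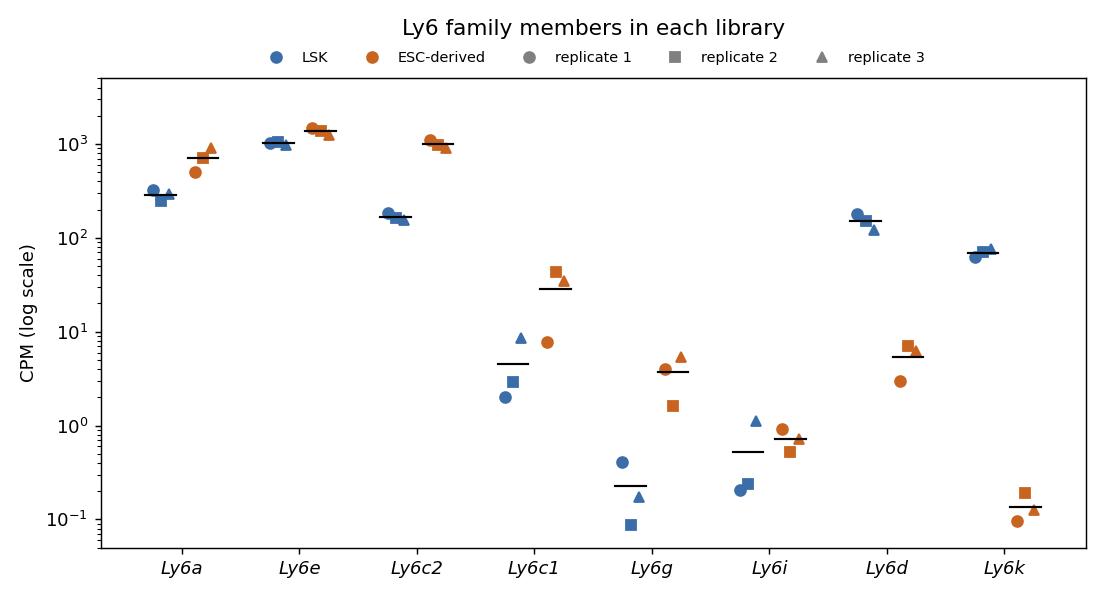
CPM of each member (log axis) in the 3 LSK libraries (blue) and the 3 ESC-derived libraries (orange), with the marker shape giving the replicate and the black line the group mean. Ly6a, Ly6e, Ly6c2 and Ly6g lie higher in each ESC-derived library than in any LSK library, Ly6d and Ly6k lie lower, and the groups overlap for Ly6c1 and Ly6i.

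Ly6a (ENSMUSG00000075602, chromosome 15, 74994877 to 74998031, minus strand) was detected in each library, both groups having been gated on its product. It measured 325, 246 and 292 CPM in LSK libraries 1, 2 and 3, and 507, 710 and 917 CPM in ESC-derived libraries 1, 2 and 3. Every ESC-derived library was above every LSK library, and the ESC-derived libraries spread more widely, with an SD of 205 CPM against 39.7 CPM in LSK. The rise was 2.47-fold (log2 fold change 1.30 ± 0.23 SE, edgeR adjusted p = 0.00629), and 1.18 on the log2 scale without LSK library 2 (edgeR adjusted p = 0.0360). A test against a 2-fold change did not pass (edgeR adjusted p = 0.172). Over the 6 libraries, and among 8351 genes with a mean of at least 10 CPM, the log2 levels most like those of Ly6a were those of Golga7 (Pearson r = 0.997), Smad2 (0.992) and Tulp4 (0.990). These coefficients rest on libraries that fall into 2 groups and are given as a description. Golga7, which encodes a partner of a protein palmitoyltransferase, measured 56.5 to 63.8 CPM in LSK against 86.2, 110 and 134 CPM in ESC-derived libraries 1, 2 and 3. The order it shares with Ly6a within the ESC-derived group follows from picking genes by this correlation and is no separate result.

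Most genes that accompany Sca-1 in stem cells fell. Among 15 haematopoietic stem cell genes tested there were 11 falls and 1 rise, where 15.2% of all tested genes fell and 14.8% rose. The falls include Kit, whose product separated the gates of the 2 groups, so its fall is no separate result. Their summed level was 1444 to 1467 CPM in LSK against 61.7 to 122 CPM in ESC-derived libraries. Meis1, a partner of Hox proteins, fell (log2 fold change -8.40 ± 0.40), and Hoxa9 was at 0 in ESC-derived cells, which is at least 687-fold lower with the floor set at 12 counts over a group. The member that rose was Slamf1 (CD150; log2 fold change 4.28 ± 0.39), an antigen of stem cells that T cells also carry. The 19 T cell genes, all of which rose, summed to 304 to 340 CPM in LSK against 17687 to 18545 CPM in ESC-derived libraries. Of the endothelial genes, another class of Sca-1-positive cells, 12 of 13 listed were tested, 7 fell and 5 did not pass, with 4 falls without LSK library 2 or 3. The endothelial sum was 383 to 405 CPM in LSK against 64.8 to 89.6 CPM in ESC-derived libraries, with Cdh5 (CD144) at 0 in 5 libraries and 0.174 CPM in LSK library 3. The part of each cell type in the Ly6a level was not tested.

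Ly6e (ENSMUSG00000022587, chromosome 15, 74955051 to 74959905, plus strand), first described on immature thymocytes as TSA-1 and known to restrict entry of coronaviruses, had the highest counts of the family. It measured 1022, 1041 and 977 CPM in LSK libraries 1, 2 and 3, and 1495, 1366 and 1251 CPM in ESC-derived libraries 1, 2 and 3. The ESC-derived libraries were all higher, but the difference was small and the order within the ESC-derived group was the opposite of that of Ly6a. The rise was 1.35-fold (log2 fold change 0.44 ± 0.10, edgeR adjusted p = 0.0162). It did not pass without LSK library 2 (edgeR adjusted p = 0.0731) or 3 (0.0512), nor with library totals only (edgeR adjusted p = 0.206, log2 fold change 0.18), a scaling under which the median of all genes was -0.31.

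Both Ly6a and Ly6e are known to respond to interferons, and the listed interferon response genes moved both ways. Of 28 tested, 9 rose, 4 fell and 15 did not pass, with a median log2 fold change of 0.18. Among all tested genes 14.8% rose and 15.2% fell, and the share of falls in this list was close to the latter. Their summed level was 1369 to 1456 CPM in LSK against 2068 to 2588 CPM in ESC-derived libraries. Igtp, an interferon-induced GTPase (2.21 ± 0.13), and Samhd1, a nucleotide hydrolase that restricts viruses (1.49 ± 0.13), rose on the log2 scale. Oas2, an antiviral enzyme that senses double-stranded RNA, averaged 8.86 ± 0.897 CPM in LSK and was at 0 in ESC-derived libraries, at least 97.2-fold lower. Oasl2, a member of the same enzyme family, fell (log2 fold change -4.57 ± 1.06). The falls numbered 1 without LSK library 1 or 2, and 2 without LSK library 3 or ESC-derived library 3.

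Ly6c1 and Ly6c2 are neighbouring genes whose products carry the Ly6C antigen, and the RefSeq promoter table (GRCm38.p6, the same assembly as mm10) held windows for these and for Ly6g, 3 of the 8 members. The 250 bases before each start site are shown for these 3, the only members with a window. All 3 rose in the comparison, to very different levels, and a link between sequence and level was not tested. Capitals mark runs of at least 10 bases found in all 3 windows.
Ly6c1, chr15:75048838-75049087, minus strand: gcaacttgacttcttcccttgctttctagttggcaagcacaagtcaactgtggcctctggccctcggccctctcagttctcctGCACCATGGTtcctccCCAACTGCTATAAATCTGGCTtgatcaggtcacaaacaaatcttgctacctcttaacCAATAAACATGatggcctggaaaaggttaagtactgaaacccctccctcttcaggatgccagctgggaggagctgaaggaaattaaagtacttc
Ly6c2, chr15:75111972-75112221, minus strand: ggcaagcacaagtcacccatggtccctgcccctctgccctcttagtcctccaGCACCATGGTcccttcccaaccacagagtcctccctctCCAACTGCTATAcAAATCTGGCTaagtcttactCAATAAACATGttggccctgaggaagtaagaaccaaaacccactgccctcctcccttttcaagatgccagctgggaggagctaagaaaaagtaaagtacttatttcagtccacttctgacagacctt
Ly6g, chr15:75155011-75155260, plus strand: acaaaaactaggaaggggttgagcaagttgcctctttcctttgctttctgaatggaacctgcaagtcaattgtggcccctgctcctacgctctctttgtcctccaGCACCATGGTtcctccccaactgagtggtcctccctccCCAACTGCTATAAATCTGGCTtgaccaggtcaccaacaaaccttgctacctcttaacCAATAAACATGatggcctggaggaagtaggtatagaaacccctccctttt

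In a global alignment, Ly6c1 and Ly6g were identical at 83.5% of 206 aligned bases, Ly6c2 and Ly6g at 80.3% of 173, and Ly6c1 and Ly6c2 at 75.9% of 216. These percentages leave out 88, 154 and 68 gap bases, in the same order, so they do not rank the pairs by likeness of the whole windows. The middle capital run of Ly6c1 and Ly6g appears in Ly6c2 as a pair of runs with 1 base between them. The RefSeq start of Ly6g lies 21 bases downstream of the GENCODE start. The CCAAT box (CCAAT, either strand) begins 95 bases before the start of Ly6c1 and 51 bases before that of Ly6g, overlaps the last capital run in both, and has no match in the Ly6c2 window. It was found in 34.46% of the 27025 promoters of the table. The interferon motifs GAS (TTCNNNGAA, in 7.18% of promoters) and the ISRE core (in 3.04%), searched on both strands, had no match in these 3 windows.

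Ly6c2 (ENSMUSG00000022584, chromosome 15, 75108158 to 75111970, minus strand) was high in both groups. It measured 183, 164 and 154 CPM in LSK libraries 1, 2 and 3, and 1092, 985 and 913 CPM in ESC-derived libraries 1, 2 and 3. Each group was tight, and the lowest ESC-derived library was far above the highest LSK library. The rise was 5.96-fold (log2 fold change 2.57 ± 0.12, edgeR adjusted p = 2.78e-05) and passed under each of the 18 alternatives, 1 of which tested Ly6c1 and Ly6c2 summed. Ly6c1 (ENSMUSG00000079018, 75044018 to 75048830, minus strand) varied more between libraries. It measured 2.0, 2.93 and 8.56 CPM in LSK against 7.80, 43.0 and 34.5 CPM in ESC-derived libraries 1, 2 and 3. ESC-derived library 1 lay below LSK library 3, so the groups overlapped. The rise was 6.32-fold (log2 fold change 2.66 ± 0.80, edgeR adjusted p = 0.0456), and it was lost without any one of LSK libraries 1 and 2 and ESC-derived libraries 2 and 3, with edgeR adjusted p from 0.105 to 0.150, and by limma-voom (adjusted p = 0.0763).

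Ly6c2 held nearly all reads of the pair in both groups. Its share of the Ly6c1 and Ly6c2 counts was 97.3 ± 2.24% in LSK and 97.2 ± 1.87% in ESC-derived libraries, a difference smaller than the spread between libraries (exact two-sided permutation test, p = 1, where 0.1 is the smallest possible with 3 against 3). Reads of the 2 genes can be split between them by the authors' counting. Of all 100-base windows in the annotated Ly6c1 transcripts, 9.05% also occur in Ly6c2, and at 50 bases the share is 21.49%. Summed to 1 feature, the pair rose (log2 fold change 2.58 ± 0.11, edgeR adjusted p = 1.84e-05).

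Among the cell types known to carry Ly6C, T cell genes mostly rose. Of 20 genes of memory and effector CD8 T cells, 17 rose, and their sum went from 983 to 1083 CPM in LSK to 21069 to 25033 CPM in ESC-derived libraries. Cxcr3, a chemokine receptor of memory and effector T cells (7.17 ± 0.16), and Id2, a regulator of T and innate lymphoid cells (5.43 ± 0.12), rose on the log2 scale. The monocyte list did not move in 1 direction. Of 14 genes, 2 rose while 4 fell and 8 did not pass, and the sums were 1071 to 1150 CPM in LSK against 690 to 1038 CPM in ESC-derived libraries. Among all tested genes 14.8% rose and 15.2% fell, and the share of rises in this list was close to the former. Ccr2, a chemokine receptor of monocytes that T cells also use, rose (log2 fold change 2.57 ± 0.29). F13a1, a coagulation factor gene of monocytes, fell from 5.22 ± 0.903 to 0.202 ± 0.104 CPM, and Csf1r, the receptor of the macrophage growth factor, did not pass (6.35 to 9.86 CPM in LSK and 1.77 to 4.04 CPM in ESC-derived libraries). The rises numbered 1 without LSK library 2, ESC-derived library 1 or ESC-derived library 2, and the falls 2 without any one LSK library.

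Plasma cell and plasmacytoid dendritic cell genes mostly fell. Of 12 plasma cell genes, 9 fell while 2 rose and 1 did not pass, and the sum was 41060 to 57166 CPM in LSK against 521 to 688 CPM in ESC-derived libraries. Most of the LSK sum came from the immunoglobulin constant genes Igkc (30787 ± 5608 CPM) and Ighm (13466 ± 2087 CPM). In ESC-derived libraries Igkc averaged 48.9 ± 34.0 CPM and Ighm 193 ± 23.2 CPM. Jchain, which joins secreted antibodies, measured 3949 to 4568 CPM in LSK against 1.42 to 8.07 CPM in ESC-derived libraries. Slamf7, a receptor of plasma cells and cytotoxic lymphocytes, rose (log2 fold change 3.27 ± 0.14). The plasma cell rises numbered 1 without LSK library 1, LSK library 2, ESC-derived library 2 or ESC-derived library 3. Of 11 plasmacytoid dendritic cell genes tested out of 12, 7 fell, 2 rose and 2 did not pass, and the sums were 445 to 482 CPM and 271 to 310 CPM. Siglech, a defining receptor of these cells, measured 1.26 to 2.92 CPM in LSK and was at 0 in each ESC-derived library, at least 21-fold lower. The falls numbered 4, 3 and 4 without LSK libraries 1, 2 and 3 and 4 without ESC-derived library 3, and the rises 1 without LSK library 2 or ESC-derived library 3.

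Ly6g (ENSMUSG00000022582, chromosome 15, 75155240 to 75159126, plus strand), the neutrophil antigen, was low in both groups. It had 20, 4 and 8 estimated counts in LSK libraries 1, 2 and 3 (0.412, 0.0876 and 0.174 CPM), and 168, 68 and 257 in ESC-derived libraries 1, 2 and 3 (4.0, 1.61 and 5.43 CPM). The groups did not overlap, but since 1 sequenced fragment was often worth about 4 counts, the LSK values rest on a few fragments. The fitted rise was 16.2-fold (log2 fold change 4.01 ± 0.96, edgeR adjusted p = 0.0204). It did not pass without LSK library 2 (edgeR adjusted p = 0.0925), LSK library 3 (0.0742) or ESC-derived library 3 (0.0568).

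Other neutrophil genes moved both ways. Of 17 tested out of 18, 9 rose, 3 fell and 5 did not pass, and the sums were 1307 to 1449 CPM in LSK against 4817, 4085 and 2553 CPM in ESC-derived libraries 1, 2 and 3. Among all tested genes 14.8% rose and 15.2% fell, and the share of falls in this list was close to the latter. Camp, an antimicrobial peptide of neutrophil granules, rose (log2 fold change 3.75 ± 0.26), as did Ngp, another granule protein (3.04 ± 0.22). S100a8, a calcium-binding protein abundant in neutrophils, measured 161 to 169 CPM in LSK against 1769, 1669 and 932 CPM in ESC-derived libraries 1, 2 and 3. S100a8, Camp and Ngp, like most genes of this list that rose, were lowest in ESC-derived library 3, where Ly6g was highest. Mmp8, of the same list, also rose (log2 fold change 2.28 ± 0.53) but was highest in ESC-derived library 3. It measured 8.66, 4.65 and 10.6 CPM in ESC-derived libraries 1, 2 and 3. Among the genes that were lower, Csf3r, the receptor of the growth factor G-CSF, fell (log2 fold change -5.90 ± 0.67) to 0.804 ± 0.651 CPM. Fcnb, a lectin of immature neutrophils, was at 0 in each ESC-derived library, at least 58.6-fold lower. The part of neutrophil RNA in the Ly6g level was not tested.

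**Figure D2:**
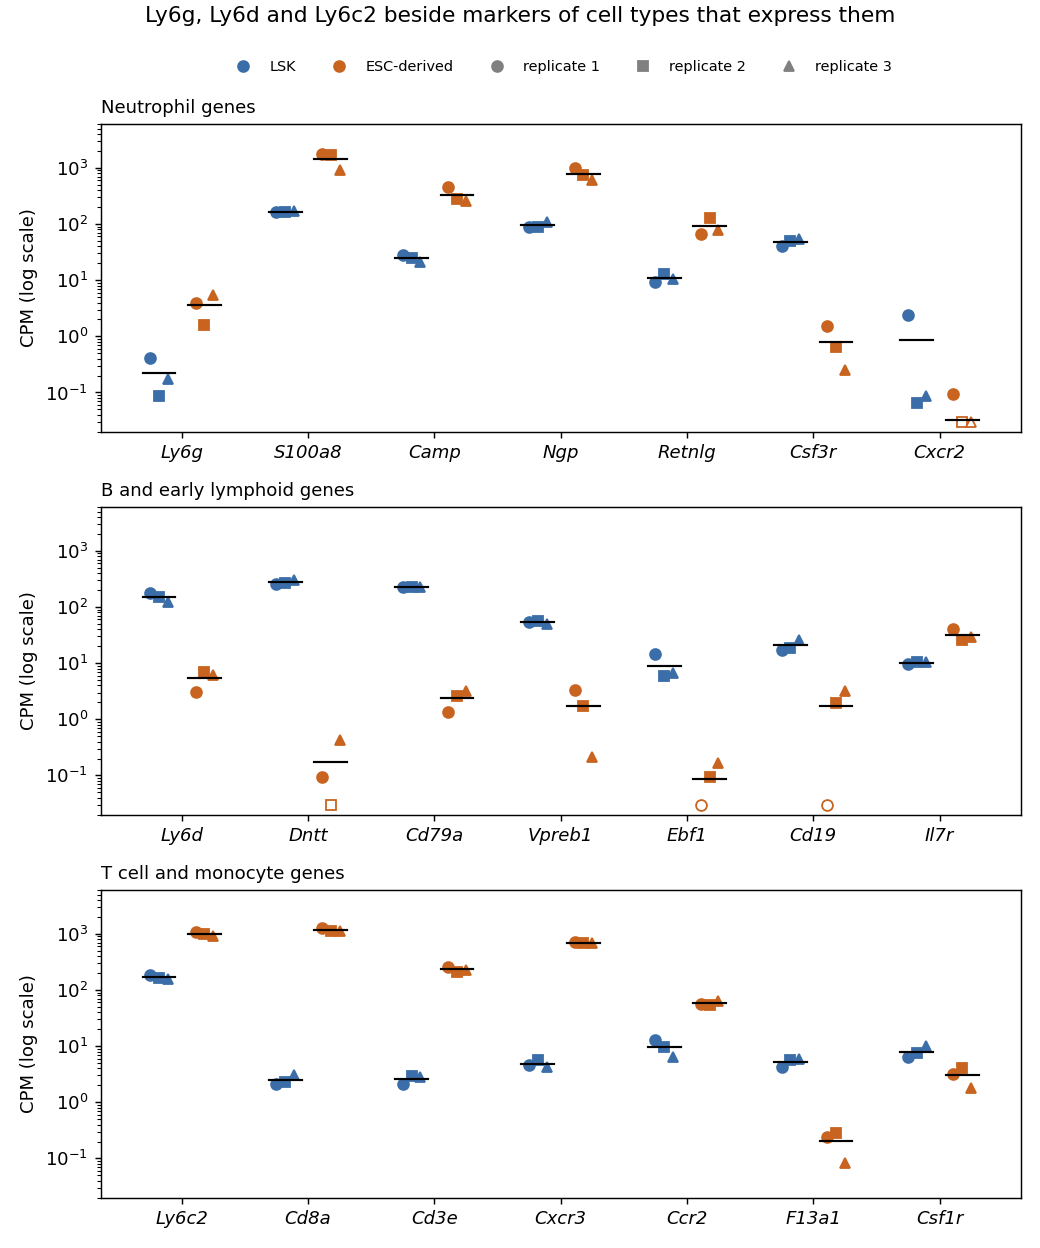
CPM (log axis) of Ly6g, Ly6d and Ly6c2, each beside genes of cell types known to express it, in LSK (blue) and ESC-derived (orange) libraries. Marker shapes give the replicate, black lines the group mean, and open symbols at the bottom libraries at 0. Ly6g rises beside S100a8, Camp and Ngp while Csf3r falls, Ly6d falls beside Dntt, Cd79a and Vpreb1, and Ly6c2 rises beside Cd8a and Cd3e while F13a1 falls.

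Ly6d (ENSMUSG00000034634, chromosome 15, 74762056 to 74763620, minus strand), which marks lymphoid progenitors committed to the B lineage and is also found on thymocytes, fell. It measured 178, 151 and 122 CPM in LSK libraries 1, 2 and 3, and 3.02, 7.08 and 6.17 CPM in ESC-derived libraries 1, 2 and 3. The lowest LSK library was more than an order of magnitude above the highest ESC-derived library. The fall was 27.7-fold (log2 fold change -4.79 ± 0.37, edgeR adjusted p = 0.000236) and passed under each of the 17 alternatives. Early B and lymphoid progenitor genes fell beside it, 12 of 15 tested out of 16, with 1 rise and 2 that did not pass. Their sum was 1848 to 2006 CPM in LSK against 39.7 to 46.1 CPM in ESC-derived libraries. Igll1, a chain of the pre-B cell receptor, measured 46.9, 30.0 and 16.4 CPM in LSK libraries 1, 2 and 3 and was at 0 in each ESC-derived library, at least 345-fold lower. Cd79a, which encodes a signalling chain of B cell receptors, fell (log2 fold change -6.59 ± 0.35), as did Cd93, an antigen of early B cells and progenitors (-6.18 ± 0.32). Dntt, the enzyme that adds bases at receptor junctions, measured 255 to 300 CPM in LSK but at most 0.422 CPM in ESC-derived libraries. The rise was that of Il7r, the interleukin-7 receptor of lymphoid progenitors and T cells (1.63 ± 0.25). The part of B lineage RNA in the Ly6d level was not tested.

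Ly6k (ENSMUSG00000044678, chromosome 15, 74796874 to 74799986, minus strand), known in the mouse for its role in sperm, had the largest change of the family. It measured 61.8, 70.3 and 77.0 CPM in LSK libraries 1, 2 and 3, and 0.0951, 0.189 and 0.127 CPM in ESC-derived libraries 1, 2 and 3. The ESC-derived libraries together had 18 counts, against 9748 in LSK. Since 1 sequenced fragment was often worth about 4 counts, those 18 rest on a few fragments, and the size of the fall is imprecise. The fall was 500-fold as fitted (log2 fold change -8.97 ± 0.32, edgeR adjusted p = 1.08e-05), and it passed under each of the 17 alternatives, with a range from -9.25 to -8.74. An antisense gene, Gm17189, overlaps 395 bases of its exons, and the library kit did not mark strand. Gm17189 was assigned 0, 16 and 26 counts in LSK and 90, 0 and 0 in ESC-derived libraries, far below the 2998 to 3537 counts per LSK library assigned to Ly6k.

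Ly6i (ENSMUSG00000022586, chromosome 15, 74979534 to 74983430, minus strand), an antigen close in sequence to Sca-1 and Ly6C, was near the detection limit in both groups. It measured 0.206, 0.241 and 1.13 CPM in LSK against 0.928, 0.520 and 0.718 CPM in ESC-derived libraries 1, 2 and 3. LSK library 3 was the highest of all and the groups overlapped. The log2 fold change was 0.45 ± 0.97 (95% interval -1.45 to 2.36, edgeR adjusted p = 0.772), so at this depth neither a rise nor a fall was detectable. Of its 50-base transcript windows, 4.76% occur in another gene, Ly6a first among them.

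**Figure D3:**
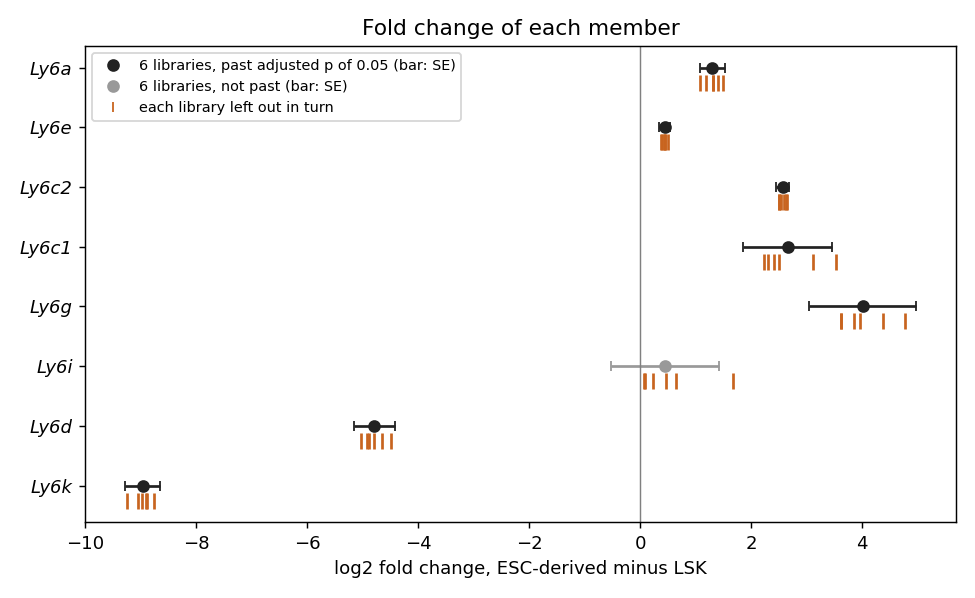
Log2 fold change (ESC-derived minus LSK) of each member with its SE, in black where past an adjusted p of 0.05 and grey where not, and below it, as orange ticks, the values with each of the 6 libraries left out in turn. Ly6k and Ly6d lie far below 0 with closely set ticks, while the ticks of Ly6c1, Ly6g and Ly6i are spread.

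The summed level of the family was higher in ESC-derived libraries. The 8 members summed to 1772, 1676 and 1632 CPM in LSK against 3110, 3113 and 3128 CPM in ESC-derived libraries 1, 2 and 3. Within the ESC-derived group the total varied little (SD 9.56 CPM), against SDs of 205 CPM for Ly6a and 122 CPM for Ly6e. In LSK it was the reverse, with an SD of 71.9 CPM for the total against 39.7 CPM for Ly6a and 33.3 CPM for Ly6e. Tested as 1 feature, the sum rose (log2 fold change 0.88 ± 0.08, edgeR adjusted p = 0.000448). Levels of different members were compared as CPM per kb of merged exons. On that scale Ly6e (268 ± 8.80), Ly6a (239 ± 33.0) and Ly6d (202 ± 37.4) were the highest in LSK, followed by Ly6k (84.1 ± 9.18), Ly6c2 (61.1 ± 5.41), Ly6c1 (2.68 ± 2.12), Ly6i (0.455 ± 0.454) and Ly6g (0.239 ± 0.179). Among neighbours in that order, Ly6e and Ly6a, Ly6a and Ly6d, and Ly6i and Ly6g overlapped between libraries, and the others did not. In ESC-derived libraries Ly6a was highest (590 ± 170), followed by Ly6c2 (364 ± 33.0) and Ly6e (362 ± 32.3), which overlapped each other, and then by Ly6c1 (17.0 ± 10.9), Ly6d (7.29 ± 2.87), Ly6g (3.90 ± 2.05), Ly6i (0.624 ± 0.177) and Ly6k (0.165 ± 0.0576). Ly6c1 and Ly6d overlapped there, as did Ly6d and Ly6g.

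The order depends on the length used. Scaled by the median length of its coding transcripts, which for Ly6e is 795 bases against 3784 of merged exons, Ly6e came first in both groups, at 1275 ± 41.9 per kb in LSK and 1724 ± 154 per kb in ESC-derived libraries. Ly6c2 was then at 262 ± 23.2 and 1562 ± 142 per kb. In ESC-derived libraries Ly6c2 (1431 to 1712 per kb) and Ly6e (1573 to 1881 per kb) overlapped on this scale. The shares of the family moved with the same choice. Ly6c2 made up 7.12 ± 0.221% of the summed level per kb of merged exons in LSK and 27.3 ± 4.85% in ESC-derived libraries. With coding transcript lengths these shares were 12 ± 0.551% and 37.3 ± 3.14%. Ly6d made up 23.5 ± 3.08% in LSK and 0.535 ± 0.190% in ESC-derived libraries, and Ly6k 9.88 ± 1.65% and 0.0122 ± 0.00409%. With coding transcript lengths Ly6d made up 9.21 ± 1.34% and 0.175 ± 0.0691%, and Ly6k 4.57 ± 0.684% and 0.00467 ± 0.00163%. For these 3 genes the groups did not overlap with either length (exact two-sided permutation p = 0.1, the smallest possible). The share of Ly6a, 27.8 ± 2.78% and 43.4 ± 8.95%, did not overlap with merged exons but did with coding transcript lengths.

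**Figure D4:**
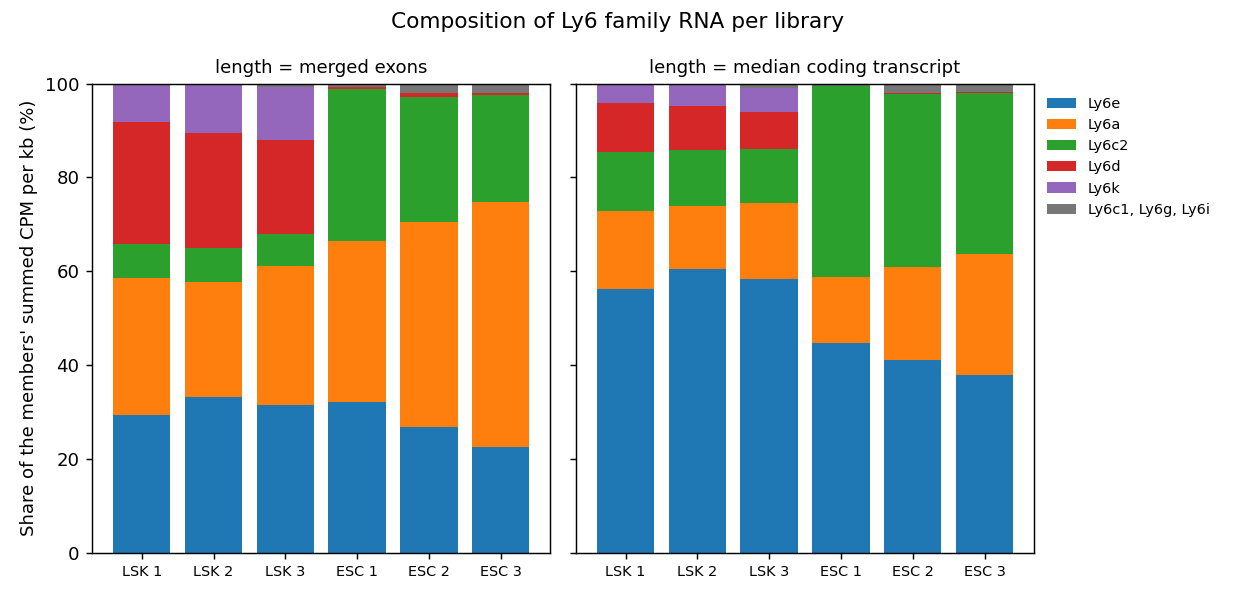
Share of each member in the summed CPM per kb of the 8 members, per library, with lengths from merged exons (left) and from the median coding transcript (right). In both panels Ly6d and Ly6k are visible in the LSK libraries and nearly absent from the ESC-derived libraries, where Ly6c2 takes a larger share, while the share of Ly6e depends on the length used.

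Most of the wider family with the same protein fold was at 0 or too low to test. Of 31 other Ly6 and urokinase receptor domain genes found, 16 were at 0 in all 6 libraries and 7 were tested, of which 1 rose, 2 fell and 4 did not pass. Plaur, the urokinase receptor, fell (log2 fold change -2.38 ± 0.16), from 96.0 ± 11.9 to 18.5 ± 1.38 CPM. Cd59a, an inhibitor of complement, had 1479 counts in LSK and 4 in ESC-derived libraries, a ratio of 348 (95% counting interval 62.1 to 13777, in fragments). Ly6g5b, a gene of unclear function, had 4 counts in LSK, and 310, 648 and 1385 counts in ESC-derived libraries 1, 2 and 3, a ratio of 623 (95% counting interval 111 to 24659, in fragments). The rises numbered 2 without LSK library 3.

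The genes around the cluster were mostly too low to test. Of 22 other protein-coding genes within 500 kb of the members, 12 were at 0 in all 6 libraries and 7 were tested, of which 1 rose and 6 did not pass, against 30.0% of all tested genes called in either direction. The rise was that of Arc, an activity-induced gene of neurons, from 0.273 ± 0.178 to 5.90 ± 1.60 CPM (log2 fold change 4.42 ± 0.76, edgeR adjusted p = 0.00577). Lynx1, a Ly6-fold modulator of acetylcholine receptors in neurons, measured 2.16 ± 1.13 CPM in LSK against 0.377 ± 0.272 CPM in ESC-derived libraries, which did not overlap, and did not pass (edgeR adjusted p = 0.0869).

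The anchor that holds Ly6 proteins is made by a chain of enzymes, most of whose genes, like most genes tested, did not pass. Of 28 tested out of 29, 2 rose, 5 fell and 21 did not pass, where 30.0% of all tested genes were called in either direction. The median log2 fold change was -0.09, and the sums were 940 to 989 CPM in LSK against 803 to 868 CPM in ESC-derived libraries. Pigt, a subunit of the transamidase that attaches the anchor, fell (log2 fold change -1.55 ± 0.21), and Mppe1, which trims the anchor, rose by 1.38 ± 0.26. The rises numbered 1 without LSK library 2, LSK library 3, ESC-derived library 2 or ESC-derived library 3, and the falls 3 without LSK library 2. Of 17 other GPI-anchored surface proteins of blood cells tested, 8 rose, 2 fell and 7 did not pass. Cd160, a receptor of cytotoxic lymphocytes (6.77 ± 0.18), and Cd48, a ligand of the SLAM family (2.71 ± 0.12), rose on the log2 scale, while Procr, a stem cell antigen, fell (-7.36 ± 0.97), as did Cd24a, an antigen of early B cells (-3.80 ± 0.93). The falls numbered 1 without LSK library 1, 2 or 3 or ESC-derived library 2.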

How the data were processed

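Per the labels' protocols, cDNA came from the SMART-Seq v4 kit, which does not mark strand, and libraries from Nextera XT. HISAT, StringTie and mm10 appear in the submitters' processing notes, without versions, settings or annotation. What the authors deposited are estimated counts, whole and not normalized. Of values from 1 to 20, 40.1 to 47.2% per library were divisible by 4, so about 4 counts were taken as 1 fragment and the floor as 12 counts over a group. The header gives all column names in 1 field, read in its order. The members and gene lists were chosen with earlier results of these data known.

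Of 55401 IDs, 55141 matched GENCODE M21. Genes were filtered with filterByExpr, scaled with TMM and tested with edgeR 4.0.16 (R 4.3.3; quasi-likelihood, robust, two-sided, Benjamini-Hochberg, threshold 0.05), after a check on simulated counts. SEs come from the F statistic. CPM uses TMM-scaled libraries. Alternatives used DESeq2 1.42.0, limma-voom 3.58.1, other scalings and filters, division by 4, summed paralogs, a replicate block and left-out libraries. The rule named all members and allowed any tested neighbour, up to 2 genes per list and direction, preset markers, and the 3 genes most like Ly6a. Csf1r, Mmp8, Vpreb1, Igll1 and Lynx1 were picked after their values were seen. The labels give no batch. Lists were described by counts, with no set test. Intervals and floors cover counting error only. One gene of the CD8 T cell list is not reported here.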

Additional observations from a re-analysis of the deposited data

How the results depend on the processing

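Of 136 fold changes of members under alternatives, 119 kept their direction and side of the threshold, 17 kept their direction but no longer passed, and none reversed. The fit of Ly6c1 and Ly6c2 summed is counted there for each of these genes. The rises among the members numbered 5 as reported, 3 with library totals only, 2 in the test against a 2-fold change, and 2 to 5 with one library left out. Over all genes, rises numbered 2395, with 971 against a 2-fold change and 1466 to 2163 with one library left out. Falls numbered 2466, with 3967 by DESeq2, 1383 against a 2-fold change and 1250 to 2440 with one library left out. With the replicate number as a block, 3 members rose, 2 fell, and 1488 genes fell over all. The correlations of same-numbered libraries, 0.0043, 0.054 and 0.0063, do not show pairing. Differences in family share (ESC-derived minus LSK, percentage points) moved with length. They were -4.12 for Ly6e, -15.9 unscaled and -17.2 with coding transcript lengths, an alternative chosen after seeing the data. They were 15.5, 5.83 and 4.49 for Ly6a, -22.9, -8.66 and -9.03 for Ly6d, and -9.87, -4.13 and -4.57 for Ly6k, in the same order, and 20.2 and 25.3 for Ly6c2 with merged exons and coding transcripts. With one library left out they ran from -6.60 to -1.83 for Ly6e, 17.6 to 22.5 for Ly6c2, 11.2 to 20.1 for Ly6a, -24.6 to -21.7 for Ly6d and -10.8 to -9.15 for Ly6k. The cause of these changes was not tested beyond the lengths themselves. Of 510 list counts under alternatives, 446 stayed within 1.5 times.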

Other observations

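Outside the comparisons above, the erythroid list, which holds no known carrier of a Ly6 antigen, had 8 of 11 genes tested, of which 2 fell and 6 did not pass. Its sum was 1222 to 1239 CPM in LSK and 234, 629 and 128 CPM in ESC-derived libraries 1, 2 and 3. Car2, a carbonic anhydrase, fell (log2 fold change -5.30 ± 0.48). The falls numbered 4 without ESC-derived library 2, and 1 gene rose without ESC-derived library 1 or 3. Hbb-bs, an adult globin, measured 22.7, 102 and 12 CPM in ESC-derived libraries 1, 2 and 3 and 39.7 to 48.5 CPM in LSK, and did not pass.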
